A study of Mus musculus with 151 samples.

Results

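Il17f, Hps5, Rfxank, Cdc42ep3, Ercc3, Agpat9, Ccng2, Anapc7, Elof1 and Arxes1 are 10 of the 35976 gene rows shared by the 7 count tables of the series, and all 10 were found in every table. They were chosen by their higher values in oocytes of IVF-conceived than of naturally conceived mice at 12 and at 39 weeks, a choice made on these same oocytes. The oocyte values are therefore given below as a description without a test, and tests are kept for cumulus cells, ovaries and primordial germ cells (PGCs), which the choice did not use. The choice set no threshold of size.

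All mice came from CF-1 females and B6/SJL males, and differ in being conceived by mating (Natural) or by fertilization in culture with growth to the blastocyst stage and transfer to a recipient (IVF). The IVF group therefore also differs by superovulation of the egg donor, embryo culture and transfer, and these cannot be told apart. The adult offspring were superovulated before oocytes and cumulus cells were taken. The single oocytes were 36 Natural and 40 IVF at the younger age, 12 weeks, and 9 Natural and 10 IVF at 39 weeks. Whole ovaries came from E18.5 fetuses (4 Natural, 6 IVF) and from 12-week (4 Natural, 5 IVF) and 39-week females (5 Natural, 5 IVF), where Natural ovary 5 is labelled 39 weeks in its title and 40 weeks in its source. Cumulus cells of 12-week females gave 5 Natural and 5 IVF libraries, and E13.5 PGCs, 100 cells a library, gave 4 Natural and 5 IVF libraries. The 12-week oocytes carry library names that fall into 5 Natural and 5 IVF donor sets of 5 to 8 oocytes, and the donor set was the unit of replication, although the labels do not say that a set is 1 animal. The 39-week labels name no donor, so each 39-week group counted as 1 sample.

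The members have little in common in textbook function. Il17f is a secreted cytokine of T helper cells and mucosal defence. Hps5 is a subunit of BLOC-2, which sorts cargo to lysosome-related organelles. Rfxank belongs to the RFX complex on MHC class II promoters. Cdc42ep3 is an effector of the small GTPase Cdc42 that acts on actin and septins. Ercc3 is the XPB helicase of the repair and transcription factor TFIIH, and Elof1 is an elongation factor that travels with RNA polymerase II. Agpat9, now named Gpat3, adds the first fatty acid to glycerol-3-phosphate in triglyceride synthesis. Ccng2 is cyclin G2, an atypical cyclin associated with cell cycle arrest and a target of FoxO factors. Anapc7 is a subunit of the anaphase-promoting complex, the ubiquitin ligase that ends meiotic arrest. Arxes1 is an adipocyte gene that arose by retrotransposition of a signal peptidase subunit. A full-grown oocyte transcribes little, so its RNA is mostly a store laid down during growth.

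In the GRCm38.p6 assembly of RefSeq, which holds the same chromosomes as the mm10 build of the files, the members lie on 8 chromosomes. Il17f occupies chr1:20777146-20785274 on the minus strand, Hps5 chr7:46760466-46796065 on the minus strand, Rfxank chr8:70130806-70139197 on the minus strand, Elof1 chr9:22112986-22117195 on the minus strand and Cdc42ep3 chr17:79333723-79355091 on the minus strand. Ercc3 lies on the remaining autosome and is not located further here. Ccng2 occupies chr5:93267573-93276231, Agpat9 chr5:100845665-100899102, Anapc7 chr5:122422444-122444912 and Arxes1 chrX:136033367-136034946, all on the plus strand. The oocyte, cumulus and PGC libraries do not mark strand, so reads of Rfxank cannot be told apart from those of Nr2c2ap over the 1341 exon bases that the genes share on opposite strands. Agpat9 shares 1052 exon bases with 4930458D05Rik and Cdc42ep3 shares 188 with Gm17315, both on the opposite strand. Of the distinct 50-base stretches in Arxes1 transcripts, 38.9% also occur in Arxes2, its near-identical neighbour, so Arxes1 values are uncertain. For the other 9 members this share over all other genes ran from 0% to 5.63%.

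The RefSeq promoter table held 9 of the members, and the 250 bases before the start it lists are described for those 9. The listed start is not always the outermost one. The windows of Il17f and Agpat9 lie inside the gene spans given above, and that of Hps5 in part. Annotated exons of any gene cover 250 bases of the Agpat9 and Ccng2 windows, 212 of Hps5, 118 of Elof1, 41 of Anapc7 and 26 of Il17f. They cover 0 bases for Rfxank, Cdc42ep3 and Arxes1. Of 6 short motifs searched on both strands, the GC box (GGGCGG) was found in 8 of the 9 windows and in 32.7% of all 32851 promoters of the table. The only member window without it, that of Il17f, was also the only one with a TATA box (TATAAA), which occurred in 12.4% of all promoters. The CCAAT box (CCAAT) was found in 2 of the 9 windows against 33.8% of all promoters, the NOBOX element (TAATTG) in 1 against 7.17%, the E box (CANNTG) in 4 against 66.2% and the forkhead element (GTAAACA) in none against 3.17%. Il17f, Cdc42ep3, Rfxank and Arxes1 are printed to show the window with the TATA box, 29 bases before the listed start, beside 3 with GC boxes. Capitals mark matches to these motifs on either strand, apart from the E box, which is not marked.
Il17f, chr1:20784271-20784520, minus strand: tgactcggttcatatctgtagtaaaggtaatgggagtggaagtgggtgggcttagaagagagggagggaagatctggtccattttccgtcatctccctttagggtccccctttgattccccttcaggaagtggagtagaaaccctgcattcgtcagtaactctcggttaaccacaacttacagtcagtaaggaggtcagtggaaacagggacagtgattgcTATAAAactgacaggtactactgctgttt
Cdc42ep3, chr17:79355092-79355341, minus strand: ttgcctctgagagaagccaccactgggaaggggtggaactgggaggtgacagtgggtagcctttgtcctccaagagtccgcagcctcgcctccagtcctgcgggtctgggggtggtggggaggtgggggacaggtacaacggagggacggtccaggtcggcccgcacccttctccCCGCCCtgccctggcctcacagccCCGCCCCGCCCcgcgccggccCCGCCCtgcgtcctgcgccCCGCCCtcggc
Rfxank, chr8:70139198-70139447, minus strand: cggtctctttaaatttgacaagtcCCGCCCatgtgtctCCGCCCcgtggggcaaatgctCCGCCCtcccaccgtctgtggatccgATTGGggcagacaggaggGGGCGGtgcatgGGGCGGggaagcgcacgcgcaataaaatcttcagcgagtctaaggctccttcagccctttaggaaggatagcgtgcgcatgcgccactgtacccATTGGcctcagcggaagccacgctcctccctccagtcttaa
Arxes1, chrX:136033117-136033366, plus strand: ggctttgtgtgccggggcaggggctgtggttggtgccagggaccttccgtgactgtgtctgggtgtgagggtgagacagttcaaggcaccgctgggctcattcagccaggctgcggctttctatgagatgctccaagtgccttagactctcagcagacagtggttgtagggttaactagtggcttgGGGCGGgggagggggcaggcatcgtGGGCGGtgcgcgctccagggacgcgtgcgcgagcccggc
The GC content of these windows was 47.2% for Il17f, 72.4% for Cdc42ep3, 60.4% for Rfxank and 64.4% for Arxes1, against a median of 52.4% over all promoters of the table. The Arxes1 window was identical to that of Arxes2 at all 250 bases. Hps5 is read away from Gtf2h1, a TFIIH subunit gene on the plus strand, and only 28 bases lie between the outermost RefSeq starts of the 2 genes, at chr7:46796066-46796093 (minus strand): gccggggcgggcctccggagcacgtgac.

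Total counts ran from 839781 to 10879166 per 12-week oocyte and from 2820748 to 31126357 per 39-week oocyte, and from 2532824 to 43363799 in the other tables. The summed level of 12 oocyte markers such as Zp3 and Gdf9 stood at a median of 24994 CPM (counts scaled to library size) in Natural and 27653 CPM in IVF oocytes at 12 weeks, but 4 Natural and 6 IVF oocytes lay under 13032 CPM, a limit set from the median over the table after seeing the data. These low-marker oocytes were 4 of 8 in IVF set 126_4, 2 of 8 in IVF set 127_2, 2 of 8 in Natural set 35_3 and 1 each in Natural sets 92_4 and 92_5. At 39 weeks Natural oocytes 6 and 9 were low, at 5451 and 8169 CPM against 23390 to 39128 CPM in the other 17. Some results are given with and without them. The 6 erythroid markers summed to 115 to 18370 CPM with a median of 2023 in Natural and to 2.34 to 27005 CPM with a median of 184 in IVF oocytes at 39 weeks, and their part in the 39-week values was not tested. Summed cumulus and granulosa markers stayed at or under 464.5 CPM in oocytes against 1427 CPM or more in cumulus libraries, while 12 immune markers summed to 69.4 to 2282 CPM in Natural and 158 to 5080 CPM in IVF cumulus libraries.

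At 12 weeks the median CPM over oocytes, scaled by TMM, was higher in IVF oocytes for every member, as the choice implies. The difference was not evenly spread over donor sets: Il17f, Hps5 and Cdc42ep3 were high in some donor sets and low in others, and in no member did all 5 IVF sets exceed all 5 Natural sets. Across the 14444 genes that passed the filter on low counts, 0.845% had every IVF set above every Natural set, and since the members were chosen on this contrast nothing is read from that figure. All 10 members passed that filter.

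**Figure D1:**
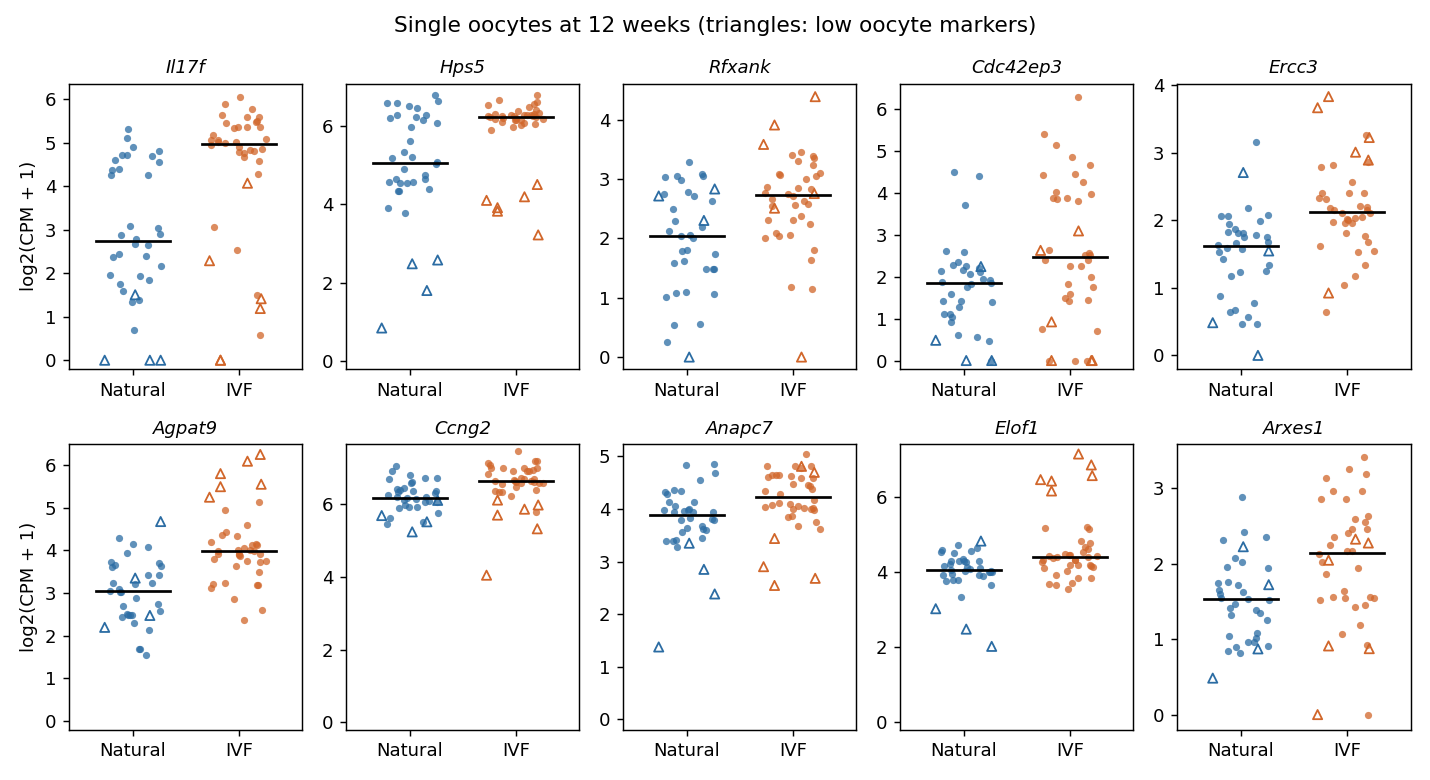
Level of each member in single 12-week oocytes, as log2(CPM + 1) with TMM scaling, for 36 Natural and 40 IVF oocytes; black lines are medians and open triangles are oocytes with low oocyte markers. Natural oocytes form separate high and low clouds for Il17f and Hps5, and the highest Elof1 values are 6 low-marker IVF oocytes at 71.2 to 142 CPM.

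Il17f, the cytokine gene, ran from 0 to 38.8 CPM in Natural oocytes with a median of 5.67 and from 0 to 65.7 CPM in IVF oocytes with a median of 30.4. Summed by donor set, the Natural values were 27.8 CPM in set 35_1, 4.14 in 35_3, 21.0 in 92_3, 3.68 in 92_4 and 2.98 in 92_5, and the IVF values 37.7 CPM in 126_2, 28.2 in 126_3, 2.04 in 126_4, 44.6 in 127_2 and 34.2 in 127_3. Natural sets 35_1 and 92_3 thus stood with 4 of the IVF sets, and IVF set 126_4 was the lowest of all 10. Leaving out low-marker oocytes kept this split, with 18.2 CPM as the lowest oocyte of any high set (in Natural 92_3) and 7.50 CPM as the highest of any low set (in Natural 35_3). Of the variation among oocytes of a group, 80.1% lay between donor sets, against a median of 16.9% and a 95th percentile of 37.5% over 12558 genes. The mean over sets was 11.9 ± 11.7 CPM in Natural and 29.4 ± 16.4 CPM in IVF (SD, n = 5 sets each), and 4 of the 5 IVF sets exceeded the highest Natural set, so that without 126_4 the groups did not overlap.

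Hps5, the BLOC-2 subunit, ran from 0.796 to 109 CPM in Natural oocytes with a median of 32.3 and from 8.33 to 109 CPM in IVF oocytes with a median of 74.7. The donor sets gave 27.3, 18.7, 27.9, 81.7 and 77.4 CPM for Natural 35_1, 35_3, 92_3, 92_4 and 92_5, and 82.3, 72.4, 49.1, 70.5 and 75.1 CPM for IVF 126_2, 126_3, 126_4, 127_2 and 127_3. Natural sets 92_4 and 92_5 were at the IVF level, and the other 3 Natural sets were at less than every IVF set. Without low-marker oocytes, every oocyte of sets 92_4 and 92_5 lay at or above 61.7 CPM, every oocyte of 35_1, 35_3 and 92_3 at or below 48.6 CPM, and every IVF oocyte at or above 58.9 CPM. Gtf2h1, which starts beside it, had medians of 39.3 CPM in Natural and 35.2 CPM in IVF oocytes, with a ratio of summed counts of 1.08. Between-set differences made up 35.9% of the variation of Hps5 within groups over all oocytes, low-marker ones included.

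IVF sets 126_2, 126_3, 127_2 and 127_3 were high in both genes. Among the other sets, Natural 35_1 and 92_3 were high in Il17f and low in Hps5, Natural 92_4 and 92_5 were low in Il17f and high in Hps5, Natural 35_3 was low in both, and IVF 126_4, lowest in Il17f, held its 4 oocytes of ordinary marker level between 58.9 and 97.1 CPM of Hps5.

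**Figure D2:**
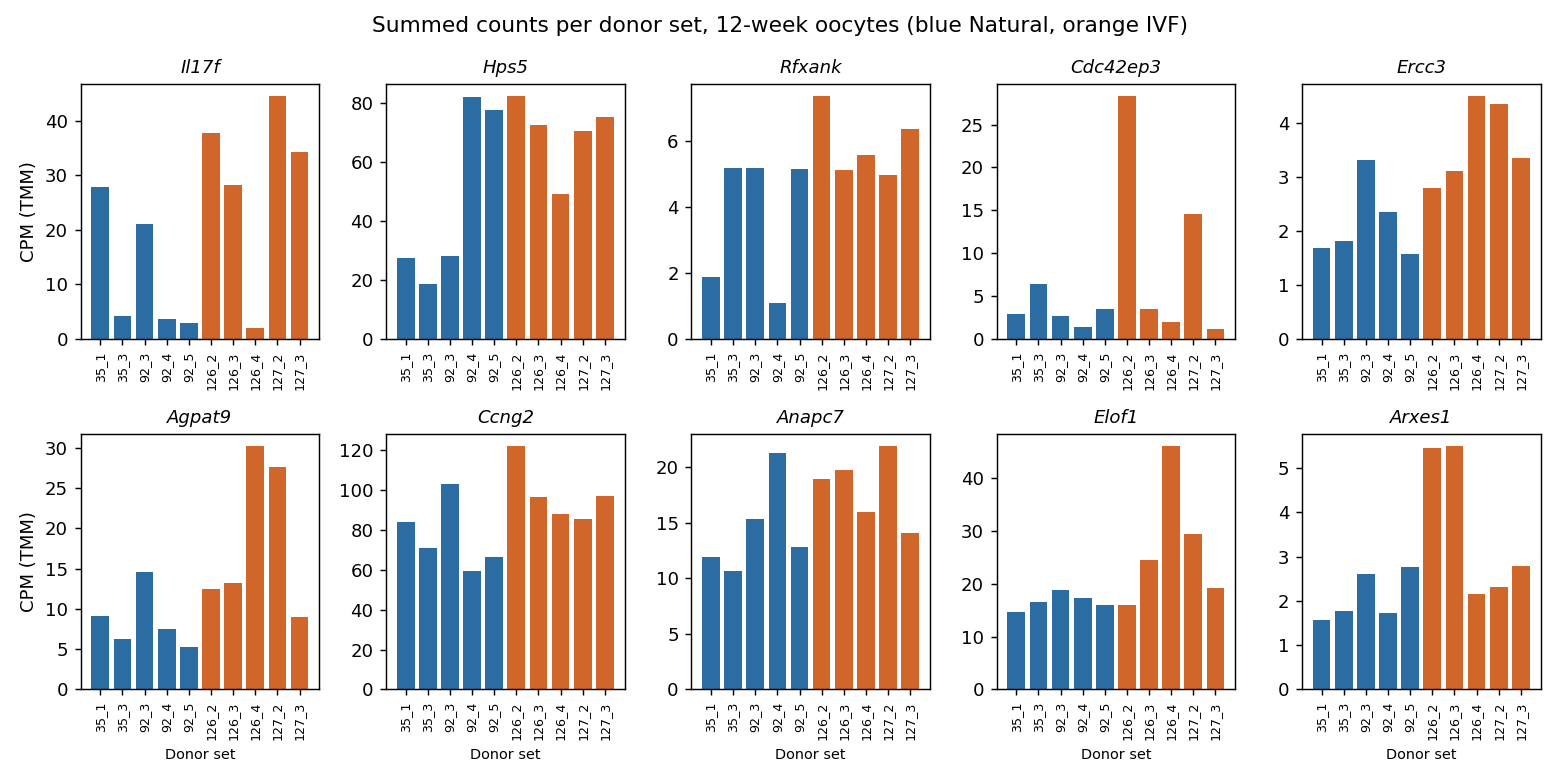
Members in 12-week oocytes with counts summed per donor set (CPM with TMM scaling, 1 bar a set), Natural sets in blue and IVF sets in orange. For each member at least 1 Natural set reaches the lowest IVF set; Il17f is low in IVF set 126_4 and Cdc42ep3 is high in IVF sets 126_2 and 127_2 only.

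Cdc42ep3, the Cdc42 effector, had its excess in a pair of IVF sets. The IVF sets gave 28.4 CPM in 126_2, 3.43 in 126_3, 2.00 in 126_4, 14.6 in 127_2 and 1.14 in 127_3, and the Natural sets gave 2.95, 6.36, 2.62, 1.41 and 3.45 CPM for 35_1, 35_3, 92_3, 92_4 and 92_5. The mean over IVF sets was 9.90 ± 11.7 CPM against 3.36 ± 1.84 CPM in Natural (SD, n = 5 sets each), so the SD of the IVF sets was larger than the difference. Leaving out low-marker oocytes, every oocyte of 126_2 and 127_2 lay at or above 13.0 CPM, and the other 3 IVF sets stayed at or below 5.18 CPM. Between-set differences made up 64.6% of its variation within groups.

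The repair and elongation genes differed in level. Ercc3 was a low transcript, at 1.68, 1.81, 3.33, 2.36 and 1.58 CPM in Natural sets 35_1, 35_3, 92_3, 92_4 and 92_5 and at 2.79, 3.11, 4.51, 4.35 and 3.36 CPM in IVF sets 126_2, 126_3, 126_4, 127_2 and 127_3. Only Natural set 92_3 reached into the IVF range, and without that set the groups did not overlap. Elof1 gave 14.7, 16.6, 18.8, 17.2 and 16.1 CPM in the Natural sets in the same order, and 16.1, 24.4, 46.0, 29.4 and 19.2 CPM in the IVF sets. The highest IVF sets for both genes, 126_4 and 127_2, were those with low-marker oocytes. Ercc3 had a median of 7.68 CPM in the 6 low-marker IVF oocytes against 3.21 CPM in the other 34. In Natural oocytes its median was 1.16 CPM in the 4 low-marker ones and 2.12 CPM in the other 32. In the 6 low-marker IVF oocytes Elof1 stood at 71.2 to 142 CPM, against 10.8 to 36.0 CPM in the other 34, and in the 4 low-marker Natural oocytes at 3.07 to 27.6 CPM. Without low-marker oocytes the log2 ratio of the group means of Elof1 fell from 0.70 to 0.19. The part of the low marker level in these values was not tested.

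Among the remaining members, Agpat9 of triglyceride synthesis gave 9.17, 6.23, 14.6, 7.45 and 5.25 CPM in the Natural sets and 12.5, 13.2, 30.2, 27.7 and 8.97 CPM in the IVF sets. Its highest IVF sets were again 126_4 and 127_2, and their 6 low-marker oocytes held 36.9 to 74.9 CPM against 4.14 to 34.0 CPM in the other IVF oocytes. Ccng2, the atypical cyclin, gave 83.7, 71.1, 102.9, 59.5 and 66.1 CPM in Natural and 121.8, 96.6, 87.7, 85.3 and 96.8 CPM in IVF sets, and only Natural 92_3 exceeded the lowest IVF set. Anapc7 of the anaphase-promoting complex gave 11.9, 10.7, 15.3, 21.2 and 12.8 CPM in Natural and 18.9, 19.7, 16.0, 21.9 and 14.1 CPM in IVF sets. These 3 genes overlapped between groups, with ratios of set means of 2.17, 1.27 and 1.26.

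Rfxank, the RFX subunit, gave 1.88, 5.18, 5.18, 1.09 and 5.15 CPM in the Natural sets, so that 35_1 and 92_4 stood apart from the other 3. The IVF sets gave 4.96 to 7.35 CPM. Its median was 8.39 CPM in low-marker and 5.47 CPM in the other IVF oocytes, and 4.76 and 3.07 CPM in Natural ones. Arxes1 gave 1.57 to 2.77 CPM in the Natural sets, 5.44 and 5.49 CPM in IVF 126_2 and 126_3 and 2.16 to 2.79 CPM in the other 3 IVF sets. Its neighbour Arxes2, with which it shares sequence, had medians of 8.74 CPM in Natural and 8.46 CPM in IVF oocytes. At a common depth of 800000 reads per oocyte, the expected share of oocytes with at least 1 Arxes1 read was 74.2% in Natural and 84.7% in IVF, while the shares as sequenced were 100% and 95%. For Cdc42ep3 the shares at that depth were 72.2% and 77.9%, against 91.7% and 85% as sequenced, so the order of the groups turned with depth for both genes. The expected shares took each count as an independent read. Between 65.6% and 79.0% of the nonzero counts of a 12-week oocyte were even numbers, and the effect on these shares was not tested.

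Most pairs of members varied little together among oocytes. Over the 45 pairs, the Spearman correlation of log2(CPM + 1) centred within each group ran from -0.32 to 0.49 with a median of 0.05 over 76 oocytes that share donor sets and library depth, and from -0.34 to 0.55 with a median of 0.02 when centred within donor sets. Within sets the highest values were those of Il17f with Hps5 (0.55), Il17f with Anapc7 (0.48) and Hps5 with Anapc7 (0.45). Low-marker oocytes are included, and these genes were lower in them. Their IVF medians for Il17f, Hps5 and Anapc7 were 1.47, 15.1 and 8.16 CPM, against 32.0, 75.4 and 18.9 CPM in the other IVF oocytes. In Natural they were 0, 3.54 and 5.22 CPM against 6.41, 35.9 and 14.4 CPM. No correlation was computed without low-marker oocytes, and their part was not tested. The non-member genes whose pattern was most like the mean of the members were Srp14, Plac8, Ubl5, Mgst3 and Timm8b, at 0.57 to 0.60. The member mean had a correlation of 0.04 with log2 library total.

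The 39-week oocytes are described in the same way, and the size of the group differences is not compared between ages. In summed counts, 8 of the 10 members were at least 2 times higher in IVF, against 7.98% of the 10940 genes that passed the filter; with this contrast used in the choice, nothing is read from the pair of figures. All 10 members passed that filter. Every IVF oocyte lay above every Natural oocyte in 1 member, Hps5, against 0.192% of genes. The donors of these oocytes are not named, so no error over animals can be given.

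**Figure D3:**
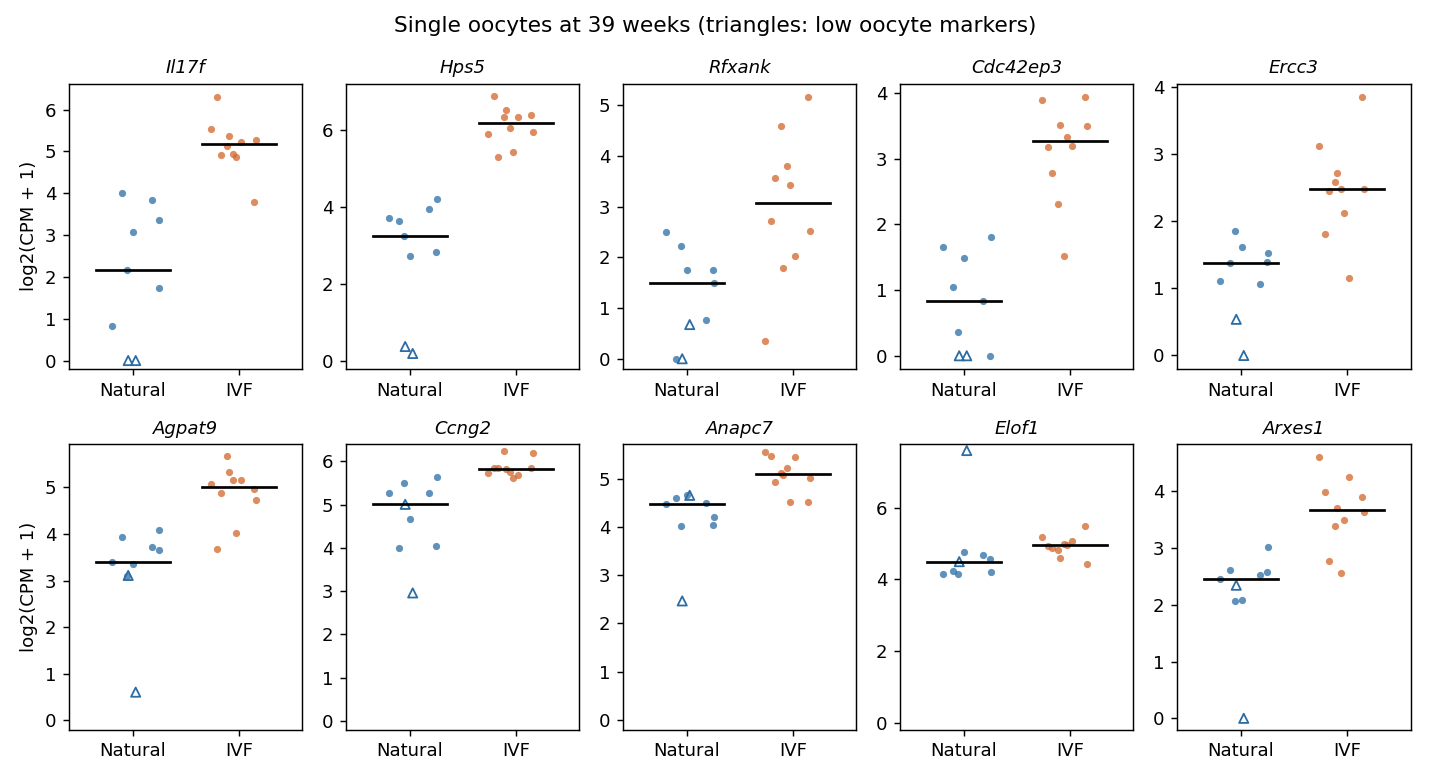
Level of each member in single 39-week oocytes, as log2(CPM + 1) with TMM scaling, for 9 Natural and 10 IVF oocytes; black lines are medians and open triangles are Natural oocytes 6 and 9. Hps5 lies between 38.3 and 116 CPM in IVF and at or below 17.4 CPM in Natural oocytes, while 1 Natural oocyte holds the highest Elof1, at 193 CPM.

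Hps5 ran from 0.149 to 17.4 CPM in Natural oocytes with a median of 8.45, and from 38.3 to 116 CPM in IVF oocytes with a median of 72.0. The 12-week medians were 32.3 CPM in Natural and 74.7 CPM in IVF oocytes, but the ages were sequenced as separate tables, and age and table cannot be told apart. Gtf2h1 had medians of 29.1 CPM in both groups at 39 weeks.

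Il17f ran from 0 to 15.1 CPM in Natural oocytes with a median of 3.50, and from 12.7 to 78.0 CPM in IVF oocytes with a median of 35.3. IVF oocyte 2, at 12.7 CPM, was the only one inside the Natural range. No Natural oocyte reached the 18.2 CPM or more of the high 12-week sets.

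Cdc42ep3 ran from 0 to 2.51 CPM with a median of 0.791 in Natural and from 1.85 to 14.4 CPM with a median of 8.61 in IVF oocytes, with 9 of 10 IVF oocytes above the highest Natural one. Agpat9 ran from 0.521 to 15.9 CPM with a median of 9.61 in Natural and from 11.8 to 49.8 CPM with a median of 31.4 in IVF oocytes. Rfxank ran from 0 to 4.66 CPM with a median of 1.81 in Natural and from 0.266 to 34.9 CPM with a median of 7.65 in IVF oocytes. For Rfxank the IVF oocytes were the more dispersed group, with IVF oocytes 2 and 6 at 34.9 and 23.1 CPM and IVF oocyte 1 at 0.266 CPM, below 7 of the 9 Natural oocytes.

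Ccng2 ran from 6.78 to 48.6 CPM with a median of 31.1 in Natural and from 47.6 to 73.9 CPM with a median of 56.0 in IVF oocytes, and 9 of 10 IVF oocytes lay above the Natural range. Ercc3 had medians of 1.61 and 4.59 CPM and Arxes1 of 4.47 and 11.8 CPM in Natural and IVF oocytes, each with 8 of 10 IVF oocytes above the Natural range. Anapc7 had medians of 21.3 and 33.4 CPM and a ratio of summed counts of 1.89. At this age Arxes2 differed as Arxes1 did, with medians of 4.70 CPM in Natural and 13.2 CPM in IVF oocytes and a ratio of summed counts of 3.37, whereas at 12 weeks that ratio was 1.09.

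Elof1 was the one member whose direction depended on the summary. Its median was 21.5 CPM in Natural and 30.0 CPM in IVF oocytes, yet summed counts gave 63.5 CPM in Natural and 30.7 CPM in IVF, a ratio of 0.483. Natural oocyte 9 alone stood at 193 CPM, against 16.8 to 26.4 CPM in the other 8, and without it the ratio was 1.63. That oocyte and Natural oocyte 6, the pair low in oocyte markers, were at 0 CPM for Il17f and at or under 0.302 CPM for Hps5. Without the pair the summed ratio was 1.69 for Elof1, 7.82 for Hps5 and 6.23 for Il17f, against 10.8 and 8.70 for the latter genes with all oocytes.

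**Figure D4:**
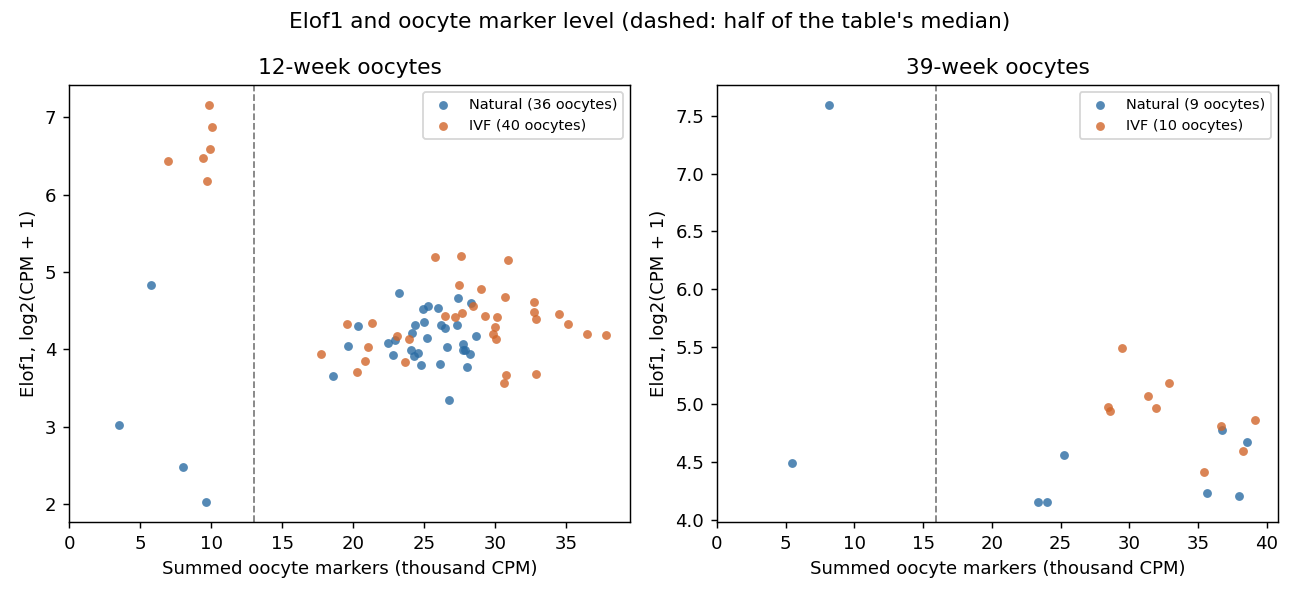
Elof1 level, log2(CPM + 1) with TMM scaling, against the summed CPM of 12 oocyte markers in each oocyte, at 12 weeks (36 Natural, 40 IVF) and 39 weeks (9 Natural, 10 IVF); the dashed lines, at 13032 and 15952 CPM, are the limits for low markers. Left of the line lie 6 IVF oocytes at 71.2 to 142 CPM and 4 Natural oocytes at 27.6 CPM or less at 12 weeks, and Natural oocytes 9 and 6 at 193 and 21.5 CPM at 39 weeks.

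Among the 153 partner genes of the members' pathways, no gene passed the edgeR quasi-likelihood test over 12-week donor sets, where 0.0277% of all genes did. Of 140 partners tested, 6 had an unadjusted p below 0.05, as did 963 of 14444 genes, DESeq2 also called none of them and 55 of 17243 genes, and the median log2 fold change was -0.01 against 0.02 over all genes. The smallest p belonged to Ube2c, the ubiquitin-conjugating enzyme of the anaphase-promoting complex, at 34.8 ± 7.21 CPM in Natural and 54.8 ± 15.5 CPM in IVF sets (SD, n = 5 each; log2 fold change 0.66, SE 0.21, adjusted p = 0.70). Gtf2h4 of TFIIH, at 6.64 ± 2.28 and 10.6 ± 2.01 CPM (adjusted p = 0.71), had every IVF set above every Natural set. The histone chaperone Supt16, at 101.3 ± 12.4 and 82.2 ± 9.42 CPM (adjusted p = 0.75), had every IVF set below every Natural set. Of all 14444 genes, 0.845% had every IVF set above, and the share below was not computed, so nothing is read from either separation. The other 7 of the 10 with the smallest p were Ap3b1, Ercc4, Bloc1s6, Il17rd, Snapin, Pak2 and Cdc27, with adjusted p from 0.73 to 0.78.

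By list, the 21 genes of TFIIH and nucleotide excision repair had 15 positive fold changes and a median of 0.10, the 17 of the BLOC and related complexes 6 and -0.10, the 20 elongation genes 8 and -0.01, and the 18 of the anaphase-promoting complex 10 and 0.01. Of the 13 Cdc42 effectors 3 were positive (median -0.16), of 12 tested RFX and MHC class II genes 6 (median 0.00), of 12 glycerolipid genes 8 (median 0.07), of 13 cyclin G and FoxO related genes 7 (median 0.02), of 8 tested IL-17 family genes 4 (median -0.01) and of 6 Arxes1 relatives 1 (median -0.07). At 39 weeks, 11 of the 123 partners that passed the filter had summed counts at least 2 times higher in IVF, or 8.94%, against 7.98% of all genes, and 21 were at least 2 times lower, as were 1555 of the 10940 genes. Without Natural oocytes 6 and 9 these were 10 higher and 13 lower, against 800 and 619 of all genes. With all oocytes, 2 of 20 TFIIH and excision repair genes were higher and 5 lower, and 1 of 8 RFX and MHC class II genes and 3. For the anaphase-promoting complex these were 2 of 17 and 2, and for the IL-17 family 2 of 6 and 0. Without Natural oocytes 6 and 9, these 4 lists had 2 and 2, 1 and 4, 1 and 1, and 1 and 0. With all oocytes, BLOC had 0 of 14 higher and 4 lower, elongation 1 of 20 and 3, and glycerolipid synthesis 1 of 11 and 2. Cyclin G and FoxO had 0 of 12 and 2, Cdc42 effectors 1 of 10 and 0, and Arxes1 relatives 1 of 5 and 0.

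In 12-week cumulus cells, the somatic cells that surround the oocyte, none of the 8 members tested was called by edgeR with library naming as a covariate, where 0.00973% of 10280 genes were, and none had an unadjusted p below 0.05 or was called by DESeq2. Il17f had at most 2 counts and Arxes1 at most 8 counts in any cumulus library, and neither passed the filter. Hps5 stood at 9.54 ± 2.95 CPM in Natural and 8.83 ± 3.23 CPM in IVF (SD, n = 5 each; log2 fold change -0.11, SE 0.28), Cdc42ep3 at 13.3 ± 4.30 and 12.0 ± 2.66 CPM (log2 fold change -0.14, SE 0.28) and Elof1 at 34.0 ± 11.1 and 41.1 ± 11.5 CPM (log2 fold change 0.29, SE 0.17). The adjusted p of the 8 members ran from 0.85 to 0.99.

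For 6 donor sets a cumulus library carries the same number as the oocytes. Hps5 was 18.7 CPM in the oocytes and 8.35 CPM in the cumulus cells of set 35_3, and 77.4 and 13.8 CPM in set 92_5. Cdc42ep3 was 28.4 CPM in the oocytes of set 126_2 and 11.7 CPM in its cumulus cells, against 3.43 and 14.0 CPM in set 126_3. Il17f was 44.6 CPM in the oocytes of set 127_2 and had 0 counts in its cumulus library. The cumulus library of set 126_2 is labelled Natural although the oocytes of that number are labelled IVF, and without that library no member was called either.

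In whole ovaries, oocytes and somatic cells are measured together, and fewer cells of a type and less RNA per cell cannot be told apart. Il17f had at most 2 counts in any E18.5, 12 in any 12-week and 10 in any 39-week ovary library, so the other 9 members were tested. At E18.5, 2 of the 9 were called, against 5.43% of 16415 genes, in opposite directions. Hps5 stood at 40.0, 36.4, 35.9 and 39.7 CPM in Natural ovaries 1 to 4 and at 49.0, 54.5, 52.6, 52.7, 49.8 and 46.6 CPM in IVF ovaries 1 to 6. It was higher in every IVF ovary (log2 fold change 0.42, SE 0.10, edgeR adjusted p = 0.028). Elof1 stood at 53.4, 56.5, 69.5 and 59.7 CPM in Natural and at 42.0, 37.5, 47.5, 42.1, 39.9 and 48.0 CPM in IVF ovaries, lower in every IVF ovary (log2 fold change -0.48, SE 0.11, adjusted p = 0.029). Cdc42ep3, at 25.4 ± 1.91 and 18.2 ± 2.44 CPM (SD, n = 4 and 6), also did not overlap but missed the edgeR threshold (log2 fold change -0.48, SE 0.14, adjusted p = 0.056). DESeq2 called it with Hps5 and Elof1, among 1856 of 17747 genes. These 3 members had an unadjusted edgeR p below 0.05, as did 3960 of the 16415 genes. The share of all genes without overlap was not computed. The edgeR calls of Hps5 and Elof1 were both lost in 7 of the 10 fits that left out a library, those without Natural ovary 2, 3 or 4 or IVF ovary 1, 2, 4 or 5, with adjusted p from 0.053 to 0.090.

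In these E18.5 ovaries other measures moved with the groups. The 12 oocyte markers summed to 200 to 861 CPM in Natural and 29.2 to 216 CPM in IVF ovaries, with Oosp1 at 0 in both, and 6 erythroid markers to 584 to 1595 CPM and 1638 to 4597 CPM. One passage of the study's methods places the collection of IVF pregnancies a day later than that of natural ones. The part of these in the Hps5 and Elof1 values was not tested.

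**Figure D5:**
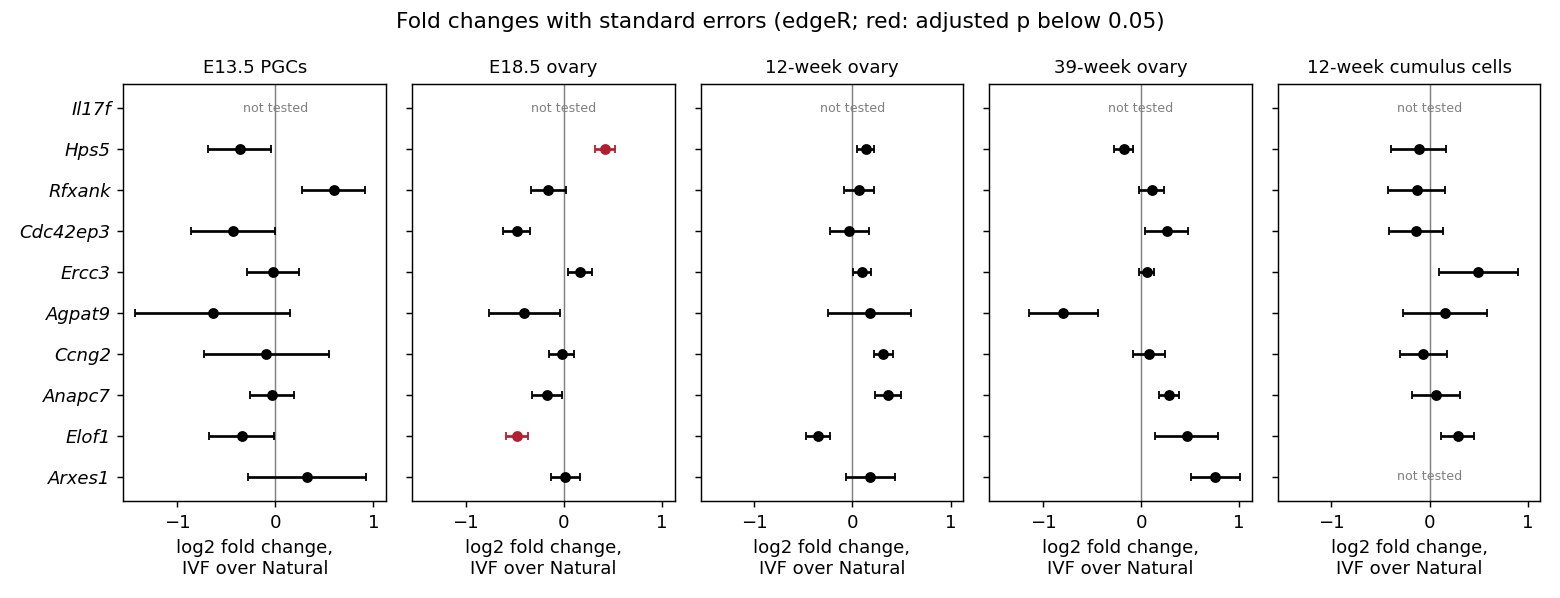
Log2 fold change of IVF over Natural for each member, with its standard error, in E13.5 PGCs, E18.5, 12-week and 39-week ovaries and 12-week cumulus cells (edgeR); red marks an adjusted p below 0.05. Only Hps5 (0.42) and Elof1 (-0.48) in the E18.5 ovary are red, and members lie on both sides of 0 in every panel.

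At 12 weeks none of the 9 members was called in the ovary, where 0.00567% of 17628 genes were, although Ccng2, Anapc7 and Elof1 had an unadjusted p below 0.05, as did 2544 of the 17628 genes. DESeq2 called none of the members and 645 of 17988 genes. Ccng2 stood at 48.7 ± 3.31 CPM in Natural and 60.6 ± 6.12 CPM in IVF (SD, n = 4 and 5; log2 fold change 0.31, SE 0.10, adjusted p = 0.21) and Elof1 at 101.0 ± 16.7 and 79.2 ± 7.02 CPM (log2 fold change -0.35, SE 0.12, adjusted p = 0.24). At 39 weeks none was called by edgeR, against 0.262% of 17186 genes, while Agpat9, Anapc7 and Arxes1 had an unadjusted p below 0.05, as did 3303 of the 17186 genes, and DESeq2 called Arxes1 and 1089 of 17979 genes in all. Arxes1 gave 1.90, 3.79, 3.69, 2.06 and 2.55 CPM in Natural and 4.49, 5.61, 3.67, 4.93 and 4.97 CPM in IVF ovaries (log2 fold change 0.76, SE 0.25, adjusted p = 0.16). Agpat9 was at 19.7 ± 7.76 CPM in Natural and 11.4 ± 5.02 CPM in IVF (SD, n = 5 each; log2 fold change -0.79, SE 0.35, adjusted p = 0.25), the opposite side from its oocyte values. Elof1 was at 158 CPM in IVF ovary 1 and at 43.0 to 60.0 CPM in the other 9. The 12 cumulus and granulosa markers summed to 1338 to 2088 CPM in Natural and 1910 to 4424 CPM in IVF ovaries at 12 weeks. At 39 weeks they summed to 735 to 2143 CPM and 1275 to 4268 CPM. At 12 weeks IVF ovaries 3 and 4 had totals of 9731457 and 2839022 counts, against 20366410 or more in the other libraries. The part of these in the member values was not tested.

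In E13.5 PGCs, the precursors of these germ cells, none of the 9 members tested was called, as 0% of 12763 genes were, and none had an unadjusted p below 0.05 or was called by DESeq2. Il17f had at most 6 counts in any library. Hps5 was at 20.2 ± 9.41 CPM in Natural and 15.8 ± 3.74 CPM in IVF (SD, n = 4 and 5), Rfxank at 7.32 ± 1.62 and 11.1 ± 2.04 CPM, and Ccng2 at 14.8 ± 15.8 and 14.1 ± 8.06 CPM, with log2 fold changes from -0.64 for Agpat9 to 0.59 for Rfxank over the 9.

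In the fetal ovary 5 of 144 partner genes were called, a smaller share than the 5.43% of all genes. The 3 higher and 2 lower in IVF were the transcription-coupled repair gene Uvssa (42.3 against 73.6 CPM in Natural and IVF, log2 fold change 0.80, SE 0.11, adjusted p = 0.012), Rfx5, the DNA-binding RFX subunit (36.3 against 53.6 CPM, log2 fold change 0.57, SE 0.10, adjusted p = 0.014), Ercc6, and, lower, Ube2c (140.7 against 67.5 CPM, log2 fold change -1.06, SE 0.19, adjusted p = 0.013) and Fzr1, an activator of the anaphase-promoting complex. The oocyte and erythroid marker sums given above moved with the groups in the same libraries, and their part in these values was not tested. At 39 weeks 1 of 146, Anapc15, fell from 25.8 to 14.9 CPM (log2 fold change -0.79, SE 0.12, adjusted p = 0.030), a call kept without IVF ovary 1 or IVF ovary 3 and lost in the other 8 fits that left out a library. In cumulus cells 0 of 127, in the 12-week ovary 0 of 147 and in PGCs 0 of 132 were called by edgeR, with 11, 20 and 5 at an unadjusted p below 0.05, against 625 of 10280, 2544 of 17628 and 349 of 12763 genes. DESeq2 called 0, 7 and 0 of them, against 27 of 10899, 645 of 17988 and 0 of 25002 genes.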

How the data were processed

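The authors deposited raw read counts per refGene gene for each library. Reads were trimmed (with trimgalore for low-input libraries per the study's methods, while the processing notes list Trimmomatic 0.32), aligned to mm10 with STAR 2.3.0e and counted with featureCounts 1.5.0. Between 55.4% and 79.0% of the nonzero counts of a library were even numbers. The members and all gene lists were chosen with earlier results of these data known.

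Groups followed the labels. Counts of 12-week oocytes were summed per donor set. edgeR 4.0.16 (R 4.3.3) was run with TMM, filterByExpr and the quasi-likelihood test, with Benjamini-Hochberg adjustment over all genes at 0.05, separately per table, and tested on simulated data. The fit for cumulus cells took library naming as a covariate. DESeq2 1.42.0, other scalings, no filter, left-out libraries and a replicate block were alternatives, and leaving out low-marker oocytes was added after seeing the data. CPM of single libraries were TMM scaled, and summed 39-week values were plain CPM. Named partner genes were the 10 with the smallest p in 12-week oocytes and the 3 called with the smallest p elsewhere; Ercc6 and Fzr1 were added to complete a count. The labels do not name the animal of each library, so p-values measure the spread between libraries. 39-week cumulus cells were not analysed here.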

Additional observations from a re-analysis of the deposited data

Results flagged for a closer look

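In groups of 4 to 10 libraries, a value was singled out where its gap to the next exceeded Dixon's 95% critical value. This happened for 13 of 132 groups of member values, where chance gives about 5%. In 39-week oocytes these were Elof1 in Natural oocyte 9 (193 CPM, next 26.4), Anapc7 in Natural oocyte 6 (4.53 CPM, next 15.3), Il17f in IVF oocyte 8 (78.0 CPM, next 45.6) and Ercc3 in IVF oocyte 2 (13.5 CPM, next 7.72). Both of the Natural oocytes are those low in oocyte markers. In ovaries, Elof1 in 39-week IVF ovary 1 was at 158 CPM (next 54.5), Ercc3 at 29.0 CPM in 39-week Natural ovary 3 and 35.6 CPM in 39-week IVF ovary 2, Rfxank at 12.0 CPM in 12-week IVF ovary 5, Il17f at 0.304 CPM in 12-week Natural ovary 4, Anapc7 at 86.9 CPM in E18.5 IVF ovary 3 and Arxes1 at 10.3 CPM in E18.5 IVF ovary 1. Ccng2 was at 86.7 CPM in the cumulus library of set 127_2 (next 49.4), and Hps5 at 34.2 CPM in Natural PGC library 2 (next 17.3).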

How the results depend on the processing

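The IVF means of donor sets were higher for all 10 members at 12 weeks under every alternative run, and 7 or 8 members reached a ratio of 2 at 39 weeks. The members were chosen for this direction on these same oocytes, so nothing is read from its persistence. Elof1 turned at 39 weeks: its ratio was 0.483 in summed counts, 0.422 to 1.63 without 1 oocyte, 1.39 by medians, 1.63 without Natural replicate 9 and 1.69 without both low-marker oocytes. The difference in share of oocytes with a read, IVF minus Natural, was -6.67 percentage points for Cdc42ep3 and -5 for Arxes1 without thinning, against positive values at equal depth. The number of members with all IVF sets above all Natural sets was 0 as reported. It was 0 to 2 when a donor set was left out (Ercc3 and Ccng2 without 92_3, Elof1 without 126_2, Il17f without 126_4). It was 9 of 10, all but Hps5, when counts were summed over the first field of the name, 2 sums against 2. The share over all genes was not computed under these settings. With the members chosen on this contrast, nothing is read from these counts.

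In the E18.5 ovary, 2 members were called as reported, 3 with DESeq2 (Cdc42ep3, Elof1 and Hps5) and 1 with no filter. Without 1 library 0 to 3 members were called, and with the replicate block 0. The 5 partners became 16 with DESeq2 and 0 with the replicate block. Without 1 library they were 4 to 13 (13 without Natural replicate 1 and 10 without IVF replicate 3). Calls over all genes moved as well, from 891 of 16415 as reported to 1856 of 17747 with DESeq2 and 814 of 27890 with no filter. They were 1973 of 16816 without Natural replicate 1, 1204 of 16256 without IVF replicate 3 and 313 of 16735 without Natural replicate 2. With the replicate block they were 3 of 16176. In each table the block kept only libraries whose number occurs in both groups, so at E18.5 it also left out IVF ovaries 5 and 6. In the 39-week ovary DESeq2 called 1 member and 8 partners, where edgeR called 0 and 1. The partner call ranged from 0 to 1 without 1 library and was 0 with the replicate block. Over all genes DESeq2 called 1089 of 17979, edgeR 45 of 17186 and the replicate block 24 of 17186. Without 1 library edgeR called from 0 of 17259 to 123 of 17570 genes. DESeq2 called 7 partners in the 12-week ovary, against 645 of 17988 genes. With no filter 2 were called in cumulus cells (Gadd45a and H2-Aa), against 104 of 24120 genes. The labels do not say whether equal label numbers pair libraries. Correlations of deviations between libraries of the same number ran from -0.16 to 0.01 in the E18.5 and -0.43 to 0.28 in the 12-week ovary. They ran from 0.02 to 0.40 in the 39-week ovary and -0.09 to 0.59 in PGCs, and no limit for pairing was set. The block changed no other member or partner call, and the cause of these changes was not tested. A replicate block over the cumulus libraries named by group, added after seeing the data, called 0 members and 0 partners. No paired analysis was possible for 12-week oocytes because their donor sets share no numbers, nor for 39-week oocytes because no test was made there. Il17f, at 12 counts or fewer outside oocytes, could not be tested there.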
